A study of Homo sapiens with 4 samples.

Results

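Antisense noncoding transcripts were followed in human proximal tubular cells (HPTCs) under inflammatory stimulation with an SGLT2 inhibitor present. Members were all probes outside the control set whose gene name on the array ends in -AS, with or without a number, which gave 450 probes under 397 gene names out of 34127 probes under 25992 names. The cells were HK-2, immortalised with papillomavirus E6 and E7, and RPTEC/TERT1, immortalised with telomerase, so both groups are long-term cultured lines. Both groups had been kept without serum and supplements for 24 h and were then exposed for 24 h to IL-1β (10 ng/mL) together with empagliflozin (Empa, 500 nM). Each group held 2 arrays of 1 colour, numbered replicate 1 and replicate 2, which are written below after their labels as HK2-01, HK2-02, RPTEC-01 and RPTEC-02. Control cells and cells with the cytokine but without Empa are not analysed here. Every value is therefore from the combined stimulation, and no effect of IL-1β or Empa could be measured.

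An antisense transcript is read from the strand opposite to a protein-coding gene, often from the same promoter region in the other direction or from within the gene body. Such RNAs are mostly spliced, carry no long reading frame and are present at low levels. Some are known to act on chromatin or on the stability of the overlapping mRNA, while for most no role is known. The name on the array is that of the sense partner, the coding gene across from it.

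The names were checked against strands and current annotation. RefSeq listed 331 of the 397 names under the same symbol, 65 under another current symbol and 1 not at all. Of the 65, 35 now end in -DT, the ending for divergent transcripts, which start back to back with the coding gene. RefSeq gave the type lncRNA for 427 of the 450 probes and a protein-coding type for 9. A coding sense partner was on the array for 378 names, with 363 partner genes in all. Probe and partner probe lay on opposite strands of 1 chromosome in 423 of 428 pairs, with a median distance of 34043 bases. In 3 pairs they lay on the same strand, namely both probes of HNRNPU-AS1 and a DHRS4-AS1 probe (A_24_P144332), so these do not read the antisense strand. Of 245 names with a RefSeq start for both genes, 106 had starts within 1000 bases of each other, and in 63 of these the antisense start lay upstream of the partner's start.

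The probes are oligonucleotides of 60 bases that each read 1 strand. The sequences of members that the results below turn on are printed here 5′ to 3′ in transcript direction, with GRCh37 positions from the array files, so that the part of each transcript that was measured can be seen. Capitals mark the polyadenylation hexamer AATAAA where the probe holds it, searched in transcript direction only. The probe of FUT8-AS1 lies at chr14:65878038-65878097 on the minus strand, that of EMC3-AS1 at chr3:10046661-10046720 on the plus strand and that of OIP5-AS1 at chr15:41591663-41591722 on the plus strand. The array lists both NFYC-AS1 probes for 1 transcript, and the proximal one is nearer its 5′ end. The distal NFYC-AS1 probe lies at chr1:41154752-41154811 and the proximal one at chr1:41157474-41157533, both on the minus strand. The 2 TTC28-AS1 probes, at chr22:28320884-28320943 (upstream) and chr22:28398539-28398598 (downstream) on the plus strand, are listed by the array for different transcripts of that name.
FUT8-AS1: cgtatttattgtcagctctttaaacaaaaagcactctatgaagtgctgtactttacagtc
EMC3-AS1: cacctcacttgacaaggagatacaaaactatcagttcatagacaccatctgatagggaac
OIP5-AS1: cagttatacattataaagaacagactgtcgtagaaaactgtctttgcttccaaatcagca
NFYC-AS1, distal: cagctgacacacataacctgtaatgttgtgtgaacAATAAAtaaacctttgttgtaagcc
NFYC-AS1, proximal: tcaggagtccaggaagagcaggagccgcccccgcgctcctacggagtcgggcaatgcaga
TTC28-AS1, upstream: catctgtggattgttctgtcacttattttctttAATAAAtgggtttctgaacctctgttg
TTC28-AS1, downstream: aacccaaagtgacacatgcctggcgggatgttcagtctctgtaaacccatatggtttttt

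AATAAA was in 77 of the 450 antisense probes (17.1%) and in 7.67% of all probes on the array. The share was 16.8% among the antisense probes detected on all arrays and 17.2% among those detected on none, so the hexamer did not go with detection.

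The arrays do not fall together by label. Levels are given as log2 of the processed signal over the 75th percentile of the array, so that 0 is a signal at that percentile, with a floor at -5.37 below which signals have no order. Over the 208 antisense probes tested with 4 values, HK2-01 was nearest to RPTEC-02 for 141 and to HK2-02 for 35. RPTEC-01 was nearest to HK2-02 for 140 and to RPTEC-02 for 24. RPTEC-02 was nearest to HK2-01 for 145 and to RPTEC-01 for 17, but with normexp background correction and with the deposited log2 values it was nearest to HK2-01 for 33 and 48 and to RPTEC-01 for 110 and 102. Some marker genes divided crosswise as well. The proximal tubule genes ANPEP and SLC3A1, the epithelial gene CDH1 and the thick limb gene SLC12A1 were well above background on HK2-01 and RPTEC-02 and on no other array, and the fibroblast gene DCN on HK2-02 and RPTEC-01 alone. Other markers did not divide this way. LRP2, the endocytic receptor of the proximal tubule, was highest on HK2-02 with levels of -3.34, -1.72, -2.77 and -3.06, and SLC5A2, the gene of SGLT2, MME and GGT1 were detected on every array with ranges within 1. Of the other fibroblast genes COL1A1 was detected on 3 arrays and COL1A2 on none. The other thick limb gene, UMOD, was detected on every array with levels between -3.04 and -2.70. The other epithelial genes KRT8, KRT18, KRT19 and EPCAM were detected on every array too, though each was higher on HK2-01 and RPTEC-02. Of 17 proximal tubule markers, 7 were well above background on every array and 5 on none (CUBN, SLC22A6, DPEP1, ALPL and HNF4A). The cause of this was not tested. The replicate number is also the scan date, no slide held more than 1 of these arrays, and fewer cells of a type cannot be told apart from less RNA per cell in such bulk samples. The labels were kept as given. Whether 2 of the arrays carry each other's label was not tested, and every comparison between HK-2 and RPTEC/TERT1 below, that of FMR1-AS1 included, depends on it.

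A smaller share of the antisense probes than of all probes on the array was detected. Of the 450 probes, 143 (31.8%) were well above background on all 4 arrays, against 49.7% of all 34127 probes. On none of the arrays were 209 (46.4%) well above background, against 31.7% of all probes, and 98 were on 1 to 3 arrays. Of the 51 detected on exactly 2 arrays, 23 were on HK2-02 and RPTEC-01 (45.1%, against 58.3% of all probes detected on 2 arrays). On HK2-01 and RPTEC-02 were 18 (35.3%, against 23.5%). Another 3 were on both HK-2 arrays (5.88%, against 6.61%) and 1 on both RPTEC/TERT1 arrays (1.96%, against 1.64%). By name, 124 of the 397 had a probe detected on every array and 187 had none on any. No antisense probe was saturated. The number detected was alike on the 4 arrays, with 181 on HK2-01, 198 on HK2-02, 187 on RPTEC-01 and 185 on RPTEC-02. The median level of the 143 was -2.11 on HK2-01, -2.65 on HK2-02, -2.73 on RPTEC-01 and -2.15 on RPTEC-02. The median GC content of the probe was 43.3% for the 143 and 38.3% for the 209 that were not detected, and its part in detection was not tested.

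**Figure D1:**
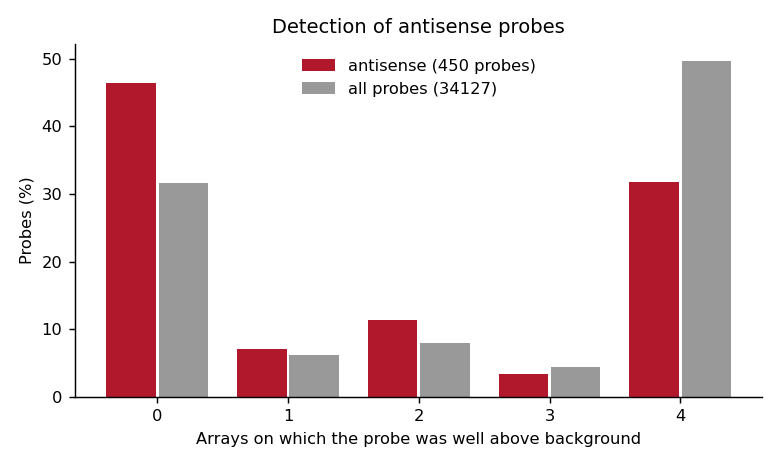
Share of antisense probes (red, 450 probes) and of all probes (grey, 34127 probes), in percent, by the number of arrays on which the probe was well above background. The antisense share is 46.4% against 31.7% on none of the arrays and 31.8% against 49.7% on all 4.

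The 30 antisense probes with the highest mean level among the 143 are described as chosen by that level. LRRC75A-AS1, now named SNHG29 as a host gene of small nucleolar RNAs, had a level of 5.37 on HK2-01, 5.69 on HK2-02, 5.36 on RPTEC-01 and 5.68 on RPTEC-02. HLA-F-AS1, across from the nonclassical class I gene HLA-F, had levels of 5.01, 5.06, 4.51 and 5.23 in the same order of arrays. Both stayed within 1 on the log2 scale over all arrays. Their sense partners ranged more widely, HLA-F from 4.49 to 5.74 and LRRC75A from -3.30 to -1.71. DPP9-AS1 had levels between 2.07 and 3.09, C9orf173-AS1 (now STPG3-AS1) between 1.85 and 3.23, DLGAP1-AS1 between 1.26 and 2.08 and ZNF528-AS1 between 1.28 and 1.81. In all, 14 of the 30 ranged by less than 1 on the log2 scale, among them SVIL-AS1, SHANK2-AS3, B3GALT5-AS1, RUSC1-AS1 and KMT2E-AS1. The other 16 ranged further. BAIAP2-AS1, now BAIAP2-DT, ranged by 2.22 with levels of 1.50, 0.11, -0.72 and 1.43, and TOPORS-AS1, now listed as the coding gene SMIM27, by 2.64 with levels of 0.94, -0.14, -1.50 and 1.14. ZNF667-AS1 had levels of 1.08, -0.68, -0.60 and 0.97, and ZBED5-AS1 levels of 0.26, -1.60, -1.05 and 0.22. All 4 were high on HK2-01 and RPTEC-02. NUTM2A-AS1 ran the other way at -1.09, 0.73, 0.21 and -1.14, as did a probe named HNRNPU-AS1 at -1.02, 0.51, 0.79 and -1.62. The latter lies on the strand of HNRNPU, a gene of nuclear RNA packaging, whose own probe had levels of 2.64, 3.77, 3.52 and 2.57 in the same order of arrays. MIF-AS1 lies across from MIF, the gene of an inflammatory cytokine, and both were detected on every array. MIF-AS1 had levels of 0.72, 0.70, -0.56 and 1.13, and MIF levels of 7.05, 6.41, 6.65 and 7.17.

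**Figure D2:**
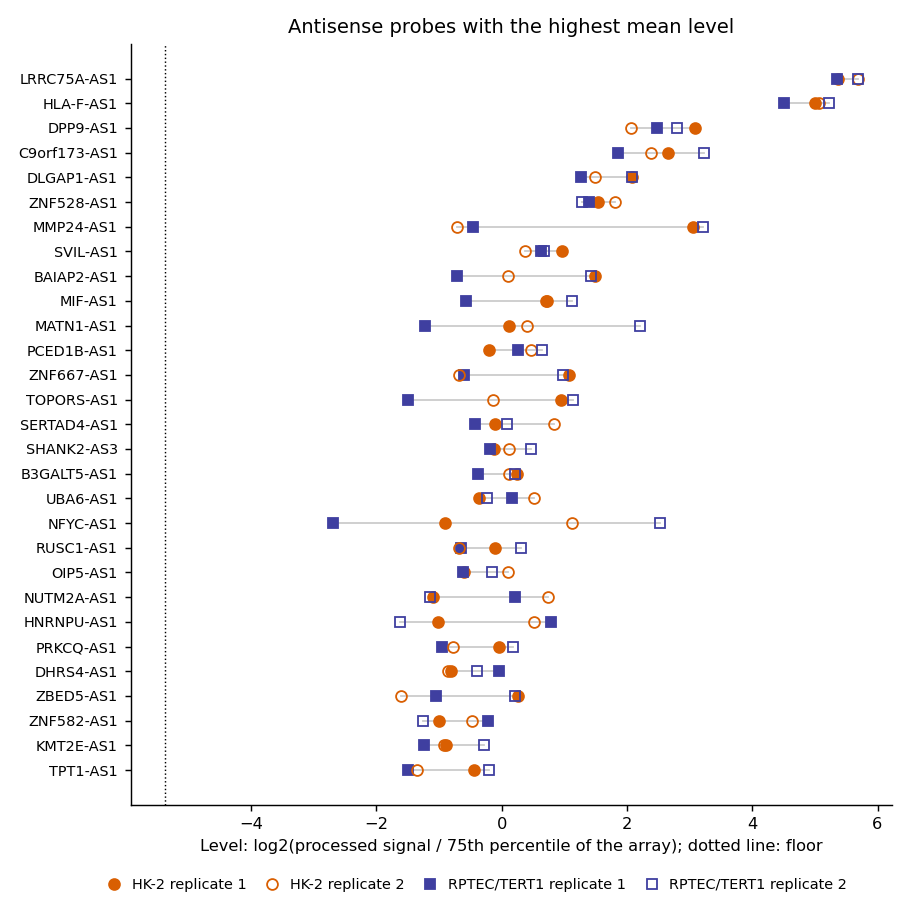
Levels (log2 of processed signal over the 75th percentile of the array) of 29 of the 30 antisense probes with the highest mean level, 1 point per array. Circles are HK-2 and squares RPTEC/TERT1, filled for replicate 1 and open for replicate 2, the grey line joins the lowest and highest array and the dotted line is the floor at -5.37. LRRC75A-AS1 and HLA-F-AS1 stayed near 5 on every array, while MMP24-AS1, MATN1-AS1 and NFYC-AS1 ranged over more than 3.

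The comparison of HK-2 with RPTEC/TERT1 asks whether the labelled lines differ in antisense levels under the combined stimulation. No antisense probe passed the threshold. limma called 0 of 209 antisense probes at an adjusted p under 0.05, with 1 at an unadjusted p under 0.05, and 0 of 376 sense partner probes, again with 1 unadjusted. Over all 21202 probes tested, limma also called 0 (0%), with 26 unadjusted (0.123%). Between-label differences of antisense probes had a median size of 0.17 and their 95% intervals reached a median of 1.74 to either side, and no interval lay within 1 of 0, so these arrays do not show that the lines are alike. Levels did not overlap between the labels for 7 antisense probes with HK-2 higher and 7 with HK-2 lower out of 208, where 3.98% and 2.87% of all probes did so. The antisense counts are close to those shares.

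The probe with the unadjusted p was FMR1-AS1, across from FMR1, the gene of an RNA-binding protein of the synapse. It is named for that count and not by the naming rule. Its level was -5.12 on HK2-01, -5.37 on HK2-02, -2.92 on RPTEC-01 and -2.27 on RPTEC-02. It was well above background on both RPTEC/TERT1 arrays and on neither HK-2 array. Of all 21202 probes tested, 177 had the reverse pattern and 37 that of FMR1-AS1, which no other of the 209 antisense probes had. The mean was at least 6.27-fold higher on RPTEC/TERT1, against the higher of the dim probe's signal and the lowest signal well above background on each HK-2 array, with an adjusted p of 1 in limma. The difference was -2.65 with an SE of 0.50 on the log2 scale, but with normexp correction it was 0.12 and with the deposited values -0.18, and the labels then overlapped. FMR1 itself overlapped between the labels with levels of -0.95, 0.46, -0.71 and -0.19. The reverse pattern was seen for DNAJC27-AS1, CALML3-AS1 and ENTPD1-AS1. Their means on HK-2 were at least 1.39-fold, 1.17-fold and 1.47-fold higher, each with an adjusted p of 1 in limma. Those HK-2 means lay near the floor, at -4.69, -5.11 and -4.28 on the log2 scale. Between the labels, the levels of DNAJC27-AS1 and CALML3-AS1 overlapped.

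Arrays of 1 label lay further apart in antisense levels than arrays paired crosswise. Compared with arrays of the same replicate number, the RPTEC/TERT1 arrays lay further apart and the HK-2 arrays about as far. The median size of the difference was 0.84 between the HK-2 arrays and 1.00 between the RPTEC/TERT1 arrays, against 0.69 and 0.82 for all probes tested. It was 0.22 between HK2-01 and RPTEC-02, and 0.34 between HK2-02 and RPTEC-01, but 0.88 between the replicate 1 arrays and 0.83 between the replicate 2 arrays. The order depends on the background. With normexp correction the RPTEC/TERT1 arrays were 0.51 apart and HK2-01 and RPTEC-02 1.75 apart, and with the deposited values 0.45 and 1.06. Each antisense probe ranged over the 4 arrays by a median of 1.32, against 1.09 for all probes, and 75 of 209 (35.9%) stayed within 1, against 45.5%.

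The differences of antisense probes leaned to one side. Between the HK-2 arrays, 64 of 208 antisense probes were higher by over 1 on replicate 1 (30.8%, against 18.1% of all probes tested) and 30 were lower by over 1 (14.4%, against 17%). Between the RPTEC/TERT1 arrays, 78 of 209 were higher by over 1 on replicate 2 (37.3%, against 22.6%) and 28 lower (13.4%, against 19.2%). The probes more than 1 higher in both were 54 of 208 (26.0%, against 12.5%), and those more than 1 lower in both were 18 (8.65%, against 11.7%). The lean held among dim probes. Of the 189 antisense probes with a mean level below 0, 31.2% were higher and 15.3% lower on HK2-01, where all probes with a mean level below 0 gave 19.5% and 19.4%. On RPTEC-02, 37.0% of such antisense probes were higher and 14.8% lower, against 22.9% and 22.5%. More antisense probes were higher than lower under every scaling tried, but on RPTEC-02 the excess over all probes depended on the background. With normexp correction 171 antisense probes were higher (82.2%, against 49.2% of all probes) and 4 lower on HK2-01, and 35 were higher (16.7%, against 14.9%) and 5 lower (2.39%, against 10.5%) on RPTEC-02. With the deposited log2 values 149 were higher (71.6%, against 41.9%) and 3 lower on HK2-01, and 27 were higher (12.9%, against 13.5%) and 5 lower (2.39%, against 10.1%) on RPTEC-02, so the larger upward share on RPTEC-02 was gone. Under these 2 settings all probes shifted up on HK2-01 as well, by a median of 0.96 and 0.71 over HK2-02. No test was made of the lean, since the arrays of a label are its replicates.

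Set side by side by replicate number, the labels gave opposite results. HK-2 was higher than RPTEC/TERT1 by over 1 for 71 of 209 antisense probes and lower for 25 on the replicate 1 arrays (34.0% and 12.0%, against 20% and 17.2% of all probes). On the replicate 2 arrays it was higher for 30 of 208 and lower for 64 (14.4% and 30.8%, against 16.6% and 18.1%).

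**Figure D3:**
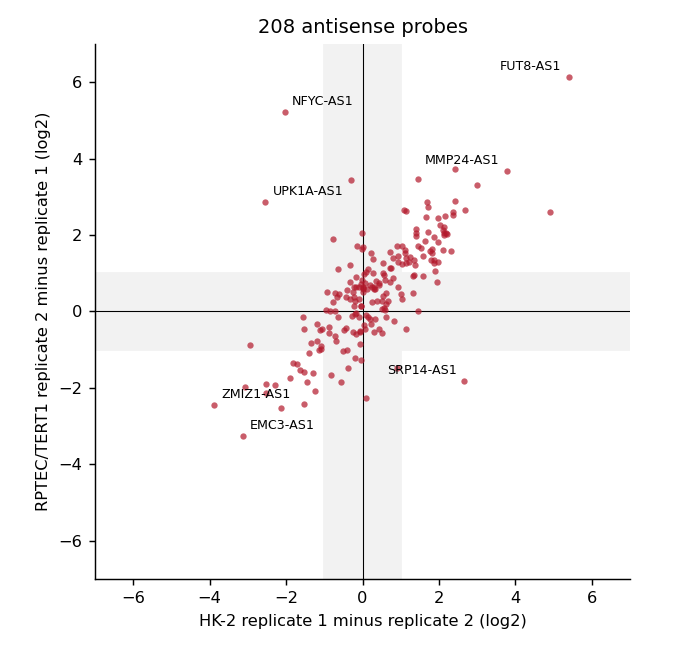
Difference between the HK-2 arrays (x axis, replicate 1 minus replicate 2) and between the RPTEC/TERT1 arrays (y axis, replicate 2 minus replicate 1) for 208 antisense probes, on the log2 scale, with the bands of less than 1 in grey. Of these, 54 lie above 1 on both axes and 18 below -1 on both. For NFYC-AS1, UPK1A-AS1 and SRP14-AS1, 1 probe each lies beyond 1 in opposite directions.

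The 10 antisense probes with the widest range are described as chosen by it. FUT8-AS1, across from the fucosyltransferase gene FUT8, had levels of 1.70 on HK2-01, -3.69 on HK2-02, -4.22 on RPTEC-01 and 1.92 on RPTEC-02. FUT8 was also higher on HK2-01 (4.38) than on HK2-02 (1.28) and RPTEC-01 (1.41), and its probe had no value on RPTEC-02. MMP24-AS1, now listed as the coding gene MMP24OS, had levels of 3.06, -0.72, -0.46 and 3.22 in the same order. These members were high on HK2-01 and RPTEC-02 and low on the other 2 arrays. WWC2-AS2, whose start lies 58 bases from that of the Hippo pathway gene WWC2, had levels of -1.65, -4.08, -5.13 and -1.39, while WWC2 stayed between -3.54 and -2.81. LHFPL3-AS2 had levels of -2.42, -3.89, -5.20 and -1.74. TRHDE-AS1 was read by 2 probes, at -0.47 and -2.76 (A_33_P3311498) and at -2.37 and -2.07 (A_33_P3311493) on HK2-01 and RPTEC-02, and both were at the floor on the other arrays, so their ranges of 4.91 and 3.30 are lower bounds.

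ZMIZ1-AS1 and EMC3-AS1 ran the other way. ZMIZ1-AS1, across from a transcriptional coregulator gene, had levels of -3.72, 0.16, 0.06 and -2.38, while ZMIZ1 stayed between 0.87 and 1.66. EMC3-AS1 had levels of -5.10, -1.97, -2.08 and -5.35 and was well above background on HK2-02 and RPTEC-01 alone. On HK-2 this order rests on the processed signal, since with normexp correction and with the deposited values EMC3-AS1 was higher on replicate 1, by 1.43 and 0.62.

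NFYC-AS1 and MATN1-AS1 followed neither order. The proximal NFYC-AS1 probe had levels of -0.91, 1.13, -2.70 and 2.53, and NFYC, a subunit gene of the CCAAT-binding factor NF-Y, stayed between -0.01 and 0.58. The distal NFYC-AS1 probe, closer to the 3′ end, had levels of -3.65, -3.10, -2.59 and -4.43. On RPTEC/TERT1 the proximal probe was 5.23 higher on replicate 2 and the distal probe 1.84 lower, so the 2 probes of NFYC-AS1 disagree on direction. MATN1-AS1 had levels of 0.11, 0.41, -1.23 and 2.21 with 1 probe and stayed between -4.16 and -3.29 with the other. Taken as HK2-01 minus HK2-02 and RPTEC-02 minus RPTEC-01, differences over 1 with opposite signs were rare among antisense probes. NFYC-AS1 and UPK1A-AS1 were higher on both replicate 2 arrays (2 of 208, against 0.769% of all probes) and SRP14-AS1 lower on both (1 of 208, against 0.437%), but with normexp correction and with the deposited values UPK1A-AS1 was higher on HK2-01. For SRP14-AS1 this holds for 1 probe (A_33_P3356356). The other tested SRP14-AS1 probe gave -0.06 for HK2-01 minus HK2-02 and -0.86 for RPTEC-02 minus RPTEC-01.

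**Figure D4:**
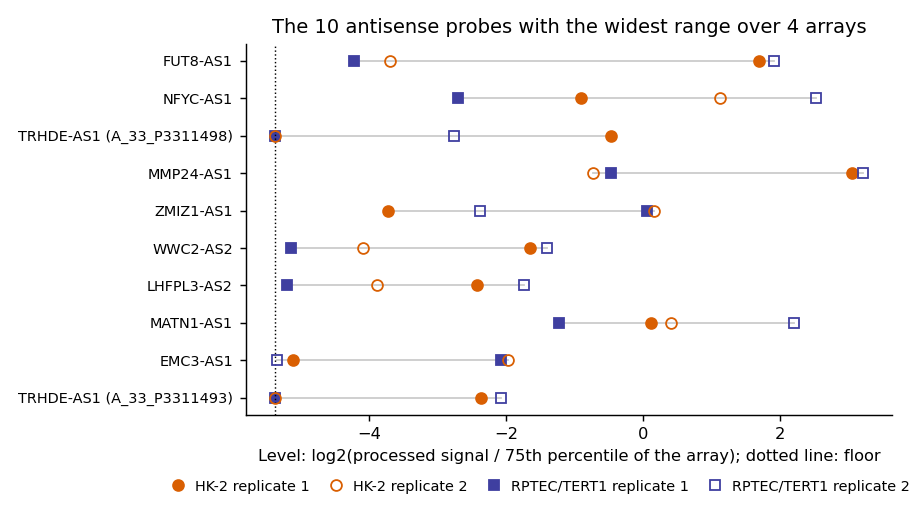
Levels (log2 of processed signal over the 75th percentile of the array) of the 10 antisense probes with the widest range, 1 point per array, with circles for HK-2, squares for RPTEC/TERT1, filled for replicate 1 and open for replicate 2. The grey line is the range and the dotted line the floor at -5.37, where both TRHDE-AS1 probes have HK2-02 and RPTEC-01 at the same place. FUT8-AS1 ranged from -4.22 to 1.92.

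Several members were read by more than 1 probe, which shows how far a name stands for a single measurement. Of 29 probe combinations under 25 names, 12 agreed within 1 on both differences between arrays of a label. The array lists 21 of the 29 for the same transcript, of which 8 agreed, and 8 for different transcripts, of which 4 agreed. SNAI3-AS1 agreed closely, with 2.13 and 2.13 between the HK-2 arrays and 2.21 and 2.06 between the RPTEC/TERT1 arrays. TTC28-AS1, named here after its values were seen, did not, and its probes are listed for different transcripts. Its upstream probe had levels of -3.85, -1.56, -1.76 and -3.68 and its downstream probe levels of -2.49, -4.36, -3.97 and -2.63, so the order of the arrays turned around between them, although on HK-2 the upstream probe was higher on replicate 1 with normexp correction (1.12) and with the deposited values (0.47). The remaining TTC28-AS1 probe was at the floor on every array.

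Of the 559 probes of the sense partners, 311 (55.6%) were detected on every array, against 31.8% of the antisense probes. For the pairs, each partner is represented by its probe of highest mean level among those with values on every array, which favours detection, or for 6 of 363 partners by a probe that lacks a value. The partner was then detected on every array in 273 of 428 pairs (63.8%). Of 139 pairs with the antisense probe detected on every array, 103 (74.1%) had the partner detected on every array, and of 197 pairs with the antisense probe detected on none, 114 (57.9%) did. In 16 pairs the antisense probe was detected on every array and the partner on none. They include DLGAP1-AS1, whose partner DLGAP1, a scaffold gene of the synapse, was at the floor on all arrays, and B3GALT5-AS1, ZNF582-AS1, HOXA11-AS and IL21R-AS1. HOXA11-AS had levels of -1.65, -3.38, -3.94 and -1.21, and its start lies 176 bases from that of HOXA11, a homeobox gene of kidney development.

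Differences between arrays of a label were not shared within pairs as a rule. Both probes were tested in 164 pairs. Of the 161 pairs with values, 90 (55.9%) moved in the same direction between the HK-2 arrays and 81 (50.3%) between the RPTEC/TERT1 arrays. Across these pairs, which share arrays and are not independent, Pearson's r was 0.16 between the HK-2 arrays and 0.04 between the RPTEC/TERT1 arrays. In the 67 pairs with starts within 1000 bases r was 0.23 and 0.19, and in the 31 with the antisense start more than 1000 bases downstream it was -0.07 and 0.03. Both probes differed by over 1 in the same direction in 17 pairs and in opposite directions in 8 between the HK-2 arrays, and in 17 and 16 between the RPTEC/TERT1 arrays.

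**Figure D5:**
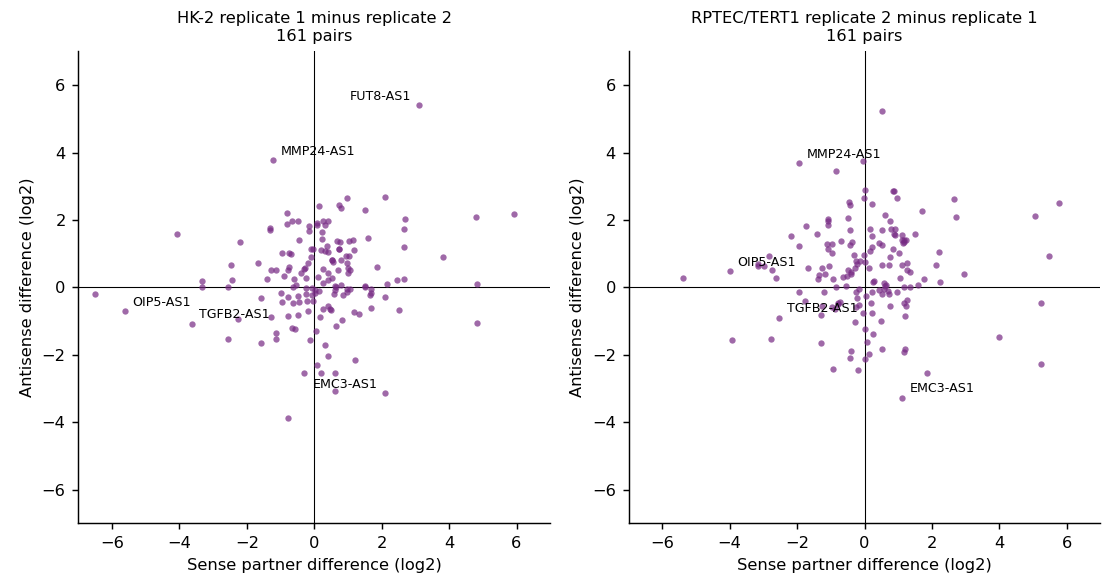
Difference of the antisense probe (y axis) against that of its sense partner (x axis), on the log2 scale, between the HK-2 arrays (left, replicate 1 minus replicate 2) and between the RPTEC/TERT1 arrays (right, replicate 2 minus replicate 1), with 161 pairs in each panel. The points spread over all quadrants, with r of 0.16 on the left and 0.04 on the right.

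In 8 pairs both transcripts differed by over 1 in the same direction on both labels, and the levels of these pairs were looked at because of that. EPB41L4A-AS2 had levels of -3.20, -5.37, -5.37 and -2.86, with EPB41L4A, a band 4.1 family gene, at 0.56, -5.37, -5.37 and 0.39. Both were read on HK2-01 and RPTEC-02 and were at the floor on the other arrays. NR2F2-AS1 was 1.72 higher on HK2-01 and 2.08 higher on RPTEC-02, and NR2F2, a nuclear receptor gene, 2.67 and 2.72 higher. ZEB1-AS1 was 1.10 and 1.54 higher on these arrays, with ZEB1, a repressor of epithelial genes, 1.19 and 1.11 higher. MCF2L-AS1 and ZFHX4-AS1 were higher on these arrays together with their partners, except that MCF2L was lower on HK2-01 with normexp correction (-1.76) and with the deposited values (-1.32). TMPO-AS1 and TMPO, a nuclear lamina gene, were lower on HK2-01, by 1.53 and 2.57, and on RPTEC-02, by 1.57 and 3.93. FOXN3-AS1 and FOXN3 were lower in the same way, but with normexp correction TMPO-AS1, TMPO, FOXN3-AS1 and FOXN3 were all higher on HK2-01, as were all of these but TMPO with the deposited values.

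In 3 pairs antisense and sense moved apart on both labels. MMP24-AS1 was 3.78 higher on HK2-01 and 3.68 higher on RPTEC-02, where MMP24, a membrane-type matrix metalloproteinase gene, was lower by 1.21 and 1.94. MMP24 had levels of 2.26, 3.47, 3.95 and 2.00, and the 2 probes lie 3 bases apart on opposite strands. EMC3, a subunit gene of a membrane protein insertase of the endoplasmic reticulum, had levels of 1.72, -0.37, 0.37 and 1.49, against the opposite order of EMC3-AS1. C1RL-AS1 had levels of -5.37, -3.23, -2.84 and -5.37 and C1RL, a gene of the complement protease family, levels of -1.20, -2.42, -2.66 and -0.80. As for EMC3-AS1, the HK-2 difference of C1RL-AS1 turned around with normexp correction (2.34) and with the deposited values (1.51).

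OIP5-AS1 stayed level while its partner did not. Its levels were -0.60, 0.11, -0.62 and -0.15, a range of 0.73. OIP5, a gene needed to load centromere protein, had levels of -3.24, 2.38, 1.42 and -2.56, a range of 5.62.

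A list of 60 antisense RNAs with a described role, drawn up from general knowledge, had 23 names with 26 probes on the array. Of these, 7 names were detected on every array and 6 on none, and of the 17 probes tested limma called 0, with 0 at an unadjusted p under 0.05 in any direction. The median range of the tested probes was 1.49, against 1.32 for all antisense probes. OIP5-AS1, HOXA11-AS, HOXA-AS3, ZEB1-AS1, MAPKAPK5-AS1, MCM3AP-AS1 and IL21R-AS1 were the names with a probe detected on every array. The HOXA-AS3 probes did not agree. A_33_P3645079 was detected on HK2-01 and RPTEC-02 alone and gave 1.32 for HK2-01 minus HK2-02, where the others gave -1.52 and -1.20. With normexp correction and with the deposited values, those others too were higher on HK2-01. MAPKAPK5-AS1 had levels of -1.60, -0.39, -0.92 and -1.68, but with normexp correction its HK-2 arrays differed by 0.0028. MCM3AP-AS1 had levels of -3.48, -3.29, -2.67 and -3.90. IL21R-AS1 stayed between -3.96 and -3.15, with IL21R at the floor throughout.

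BDNF-AS and TP73-AS1 were read on HK2-01 and RPTEC-02 alone. BDNF-AS had levels of -3.97 and -3.40 there and TP73-AS1 levels of -3.01 and -2.85, with both at the floor on the other arrays. GNAS-AS1, across from the Gs alpha gene GNAS, and TGFB2-AS1, across from the growth factor gene TGFB2, were read on HK2-02 and RPTEC-01 alone. GNAS-AS1 had levels of -5.31, -2.77, -2.73 and -4.85, while GNAS stayed between 5.71 and 6.04, and on HK-2 this order turned around with normexp correction (1.98) and with the deposited values (1.19). TGFB2-AS1 had levels of -5.37, -4.29, -4.47 and -5.37 and TGFB2 levels of -3.99, -0.37, -0.87 and -3.40, and the HK-2 difference of TGFB2-AS1 likewise turned around (2.76 and 1.83), and that of TGFB2 with normexp correction (0.05). Other names detected on 1 to 3 arrays included FOXD2-AS1, NR2F1-AS1, HOXA-AS2, TTN-AS1 and DLX6-AS1. NR2F1-AS1 had levels of -3.69, -3.99, -4.40 and -4.94 with the probe that was detected. PAX8-AS1, GATA6-AS1, CDKN2B-AS1, GATA3-AS1, HOXB-AS3 and HAS2-AS1 were at the floor on every array. Their partners were not all silent, since PAX8, a kidney transcription factor, had levels of 4.13, 1.61, 2.79 and 3.73 and GATA6 levels between -2.05 and -1.53.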

How the data were processed

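RNA of HPTCs (HK-2 and RPTEC/TERT1, 2 biological replicates each) was labelled with Cy3 (1 colour) and read on Agilent arrays. The authors deposited spot intensities from Feature Extraction 9.5.3.1, whose processed signal is background-subtracted, detrended and not scaled between arrays. The authors' second deposited file holds log2 values of these spots, whose scaling and centring stay unknown (medians 8.33, 7.14, 6.75 and 6.72 on HK2-01, HK2-02, RPTEC-01 and RPTEC-02), used as an alternative only.

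Signals of spots outside the control and outlier sets were scaled by each array's 75th percentile (393, 748, 488 and 429 in that order), set to a floor of 0.0242 of it and taken to log2, and spots of a probe were averaged. Between 59.2% and 64.9% of spots were well above background, and the number of arrays limits the precision. Probes well above background on at least 2 arrays were compared between labels with limma 3.58.1 (R 4.3.3) and Benjamini-Hochberg adjustment at 0.05, a step tested on simulated data. The simulated spread was smaller than the median spread within a label here, so that test does not show what limma could call on these arrays. P-values measure the spread between these samples, which may be technical. Probe levels are not amounts of RNA. Differences were taken between arrays only, and the choice of members by mean level and the split at a mean level of 0 order signals, not transcripts. Sequences and positions are those of the files (GRCh37), and current symbols and starts those of RefSeq (GRCh38.p14).

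The text names the 30 members with the highest mean level among those detected on every array, the 10 with the widest range, those past the threshold, their partners and the list of antisense RNAs with a described role. Others are named where the text says so, or for a count of few probes or pairs. Members, lists and tests were chosen with earlier results of these data known. The alternatives were other background correction, deposited values, quantile and median scaling, outlier spots kept, other filters, a trended prior, genes in place of probes, a replicate block and leaving out each array. Arrays with the same number deviated from their label means with a correlation of -0.795 over 20806 probes, so the numbers were not taken to pair the samples. Items withheld from this text are not reported here.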

Additional observations from a re-analysis of the deposited data

Results flagged for a closer look

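The 10 antisense probes with the widest range gave differences between the labels that turned around between replicate numbers, with every difference in replicate 1 opposite to that in replicate 2. This turn was not tested, and the probes were chosen by their range over these same arrays. Over all probes too, arrays with the same number deviated in opposite directions from their label means, with a correlation of -0.795. On the log2 scale, HK-2 minus RPTEC/TERT1 was 5.92 in replicate 1 and -5.61 in replicate 2 for FUT8-AS1. It was 3.52 and -3.94 for MMP24-AS1, 3.48 and -2.69 for WWC2-AS2, and 2.78 and -2.14 for LHFPL3-AS2. The TRHDE-AS1 probes gave 4.91 and -2.61 (A_33_P3311498) and 3.00 and -3.30 (A_33_P3311493). NFYC-AS1 gave 1.79 and -1.40, and MATN1-AS1 1.34 and -1.81. The reverse was seen for EMC3-AS1, with -3.03 and 3.38, and for ZMIZ1-AS1, with -3.78 and 2.54. The order of the HK-2 arrays turned around for EMC3-AS1 with normexp correction and with the deposited values.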

How the results depend on the processing

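limma called 0 antisense probes and 0 sense partner probes between the labels under every setting run, with 0 to 3 antisense probes at an unadjusted p under 0.05. As a replicate block, the replicate number left it at 0 of 209 antisense probes (1 unadjusted) and 0 of 21202 probes (15 unadjusted). With the numbers crossed, a setting chosen after seeing the data, it called 0 of either (2 and 206 unadjusted). Leaving out 1 array gave 0 calls throughout and between 144 and 151 antisense probes detected on all remaining arrays. With the positive-and-significant flag of the scanner software 220 antisense probes were detected on every array, and 241 were well above background on at least 1. The median size of the antisense difference moved with the background and the filter. With normexp correction it was 2.27 between the HK-2 arrays, 2.09 between the replicate 1 arrays and 1.75 between HK2-01 and RPTEC-02. Between the RPTEC/TERT1 arrays it was 0.51. With the deposited values it was 1.55 between the HK-2 arrays, 0.45 between the RPTEC/TERT1 arrays and 1.06 between HK2-01 and RPTEC-02. Without a filter, where probes at the floor enter, it was 0.0546 between the HK-2 arrays, 0.109 between the replicate 1 arrays, 0.056 between the replicate 2 arrays and 0.154 between the RPTEC/TERT1 arrays. HK-2 minus RPTEC/TERT1 over all probes had a median of 0.35 with normexp correction and 0.19 with the deposited values, and over antisense probes 0.76 and 0.41. Of the 94 antisense differences over 1 between the HK-2 arrays, 27 changed sign with normexp correction and 24 with the deposited values, and none of the 106 between the RPTEC/TERT1 arrays did under any scaling run. The cause was not tested.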

Other observations

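A list of 46 other long noncoding RNAs was followed beside the antisense members. Of 33 names on the array, 20 were detected on every array and 8 on none, and limma called 0 of 28 probes tested, with 1 (MIR22HG) at an unadjusted p under 0.05. EMX2OS, an antisense transcript outside the naming rule used here, had levels of 2.12 on HK2-01 and 2.42 on RPTEC-02 and was at the floor on the other arrays. SNHG5 had levels of 5.30, 2.83, 2.30 and 5.47 in the order HK2-01, HK2-02, RPTEC-01 and RPTEC-02, and MIR155HG, the host gene of an inflammatory microRNA, levels of -0.83, -3.33, -3.22 and -1.07. TUG1 was level at 2.69, 2.65, 2.66 and 2.87, and MALAT1 stayed between -2.01 and -1.63. SLCO4A1-AS1, across from a transporter gene that the study followed, was level too, at -1.36, -1.75, -1.73 and -1.46.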
